A study of Mus musculus with 12 samples.

Results

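The arrays described here are the 6 from the jejunum of A/J mice, 3 titled as common bile duct ligation (CBDL) and 3 titled as sham, out of 12 arrays in the series. The study asked which genes take part in the injury of the gut that follows bile duct obstruction, and whether this depends on the inbred strain. A/J CBDL mice were male, 8 weeks of age, and had bile flow blocked by a clip on the duodenal end of the common bile duct. A/J sham mice, matched for sex and age, underwent surgery that left the duct untouched. B6 CBDL and B6 sham mice (C57BL/6J, same sex and age, 3 arrays each) had the same operations. They set the A/J response against that of another strain and share the estimate of the spread with the A/J arrays. The labels name no engineered allele and no agent for any of the 4 groups. Jejunum was taken on day 7 in every group, and total RNA was read on an Affymetrix Mouse Gene ST array as 1 log2 signal for each of 35556 probe sets. The titles number the arrays 1 to 3 within a group but do not say how many mice stand behind each, so the p-values measure the spread between these arrays.

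In cholestasis, bile salts no longer reach the gut lumen, where they bring fat and cholesterol into micelles for uptake by enterocytes. Enterocytes that take up less sterol are known to raise their own synthesis and uptake of cholesterol through the transcription factor SREBP2, and to lower the ABCG5/ABCG8 pump, which returns sterols to the lumen. Secreted plasma proteins are made mainly by hepatocytes, and many of them are acute phase proteins induced by interleukin 6 and glucocorticoids.

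The labelled tissue was borne out by its markers. All 11 jejunal markers measured (among them Fabp1, Fabp2, Sis, Lct and Vil1) had log2 signals between 11.3 and 13.7 on the A/J arrays, and none was called. Pancreatic acinar markers stayed between 3.87 and 5.67. Markers of other gut segments were mixed. Of 3 colon markers, Aqp8 was called lower (-1.48). Car1 and Slc26a3 had 3.32 and -0.04 and were not called (adjusted p = 0.0587 and 0.915). The ileal Slc10a2, Fabp6 and Fgf15 had 1.15, 1.12 and -0.23 and were not called (adjusted p = 0.0703, 0.186 and 0.361). None of 4 duodenal markers was called. Of 7 hepatocyte markers, 6 were called higher in A/J CBDL, and their list averaged 9.83 to 10.6 on the A/J CBDL arrays and 6.39 to 7.23 on the A/J sham arrays. The 7th, Cps1, which enterocytes also express, was not called. The 5 markers of liver cells other than hepatocytes averaged 5.11 to 5.40 on the A/J CBDL arrays and 4.65 to 4.81 on the A/J sham arrays, and none was called. A/J sham 3 stood apart from the other A/J sham arrays in some liver transcripts, and A/J sham 1 was low in smooth muscle genes (list mean 6.46, against 7.79 and 7.34 on A/J sham 2 and 3 and 7.61, 7.23 and 7.15 in A/J CBDL). The medians of the 6 arrays ran from 5.36 to 5.44. In such whole-tissue samples, a lower signal from fewer cells of a type and one from less RNA per cell cannot be told apart.

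CBDL changed 291 probe sets in A/J jejunum at a Benjamini-Hochberg adjusted p under 0.05 (limma, fitted over the 12 arrays), 224 higher (0.63% of all probe sets) and 67 lower (0.188%). Higher calls made up 77% of all calls, but 64.9% after quantile normalization and 66.5% with each array's median subtracted. The share was 90.4% with only the 6 A/J arrays in the fit and 86.9% with the replicate number as a block. The increases were also larger, with 150 of the higher and 19 of the lower calls over 2-fold. With only the 6 A/J arrays in the fit, 197 probe sets were called, 178 higher and 19 lower, and 133 of them were among the 291. Counted by gene, with each of 19938 genes read by its brightest probe set, 151 were higher (0.757%) and 60 lower (0.301%). The median log2 difference of CBDL minus sham over these genes was -0.03. These gene shares and this median are the background for the counts and medians of every gene list below.

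Probe sets were split by whether A/J sham jejunum already gave a clear signal, at a mean log2 signal of 7 over the 3 A/J sham arrays. Among the 9758 bright probe sets, 61 were higher (0.625%) and 49 lower (0.502%). Among the 25798 dim ones, 163 were higher (0.632%) and 18 lower (0.0698%). The bright split changed direction with the scaling, to 68 higher and 81 lower after quantile normalization and 39 and 59 with medians subtracted, and the dim calls were then 154 higher and 39 lower, and 138 and 30. Bright calls were 126 higher and 49 lower without A/J sham 3, 21 and 8 without A/J sham 2, and 52 and 22 without A/J CBDL 3. The split uses the same sham arrays as the comparison, so a dim probe set has more room to rise than to fall, and the contrast between the classes was not tested. With the 3 B6 sham arrays as the measure of brightness, 105 higher and 48 lower calls were bright, and 119 higher and 19 lower calls were dim. These arrays enter the comparison only through the shared estimate of the spread. Liver transcripts can be bright in them, as for Alb (mean 11.53 in B6 sham, 6.41 in A/J sham), so this measure does not single out gut transcripts. Near the threshold, Cyp1a1, Dio1 and Sqor lay just inside the bright class, with A/J sham means of 7.02, 7.01 and 7.05, and Aqp8 and Kdelr3 just outside it with 6.97 and 6.96.

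**Figure D1:**
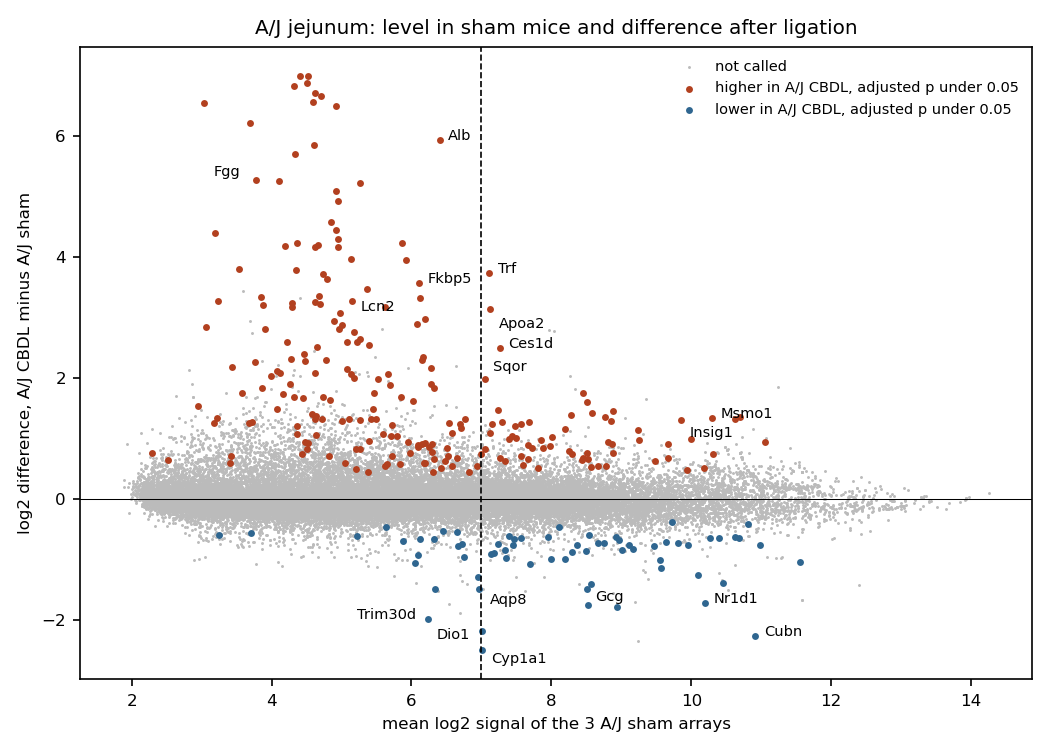
Difference between A/J CBDL and A/J sham (vertical axis, log2) of every probe set against its mean log2 signal in A/J sham (horizontal axis), with called probe sets coloured by direction and the line at 7 dividing dim from bright. The largest increases (over 5 log2 units) lie left of the line among dim probe sets, and the largest decrease, of Cyp1a1, lies next to it.

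Genes of cholesterol synthesis rose together in A/J CBDL jejunum. Of 23 genes of cholesterol synthesis and uptake measured, 13 were higher, 0 lower and 10 not called, against 0.757% higher over all genes, with a median log2 difference of 0.65 against -0.03. Those called run along the pathway: Hmgcs1, Mvk, Pmvk, Idi1 and Fdps of the mevalonate part, Fdft1, Sqle and Lss, which make squalene and close it to lanosterol, Cyp51, Msmo1 and Nsdhl, which take methyl groups off it, and the regulators Insig1 and Srebf2. Arrays of A/J CBDL had signals of 8.80, 8.69 and 8.62, and those of A/J sham 7.35, 7.29 and 7.07, for Cyp51, the lanosterol demethylase. All 3 A/J CBDL arrays were above all 3 sham arrays, and Cyp51 rose by 1.47 (standard error 0.19, adjusted p = 0.00717). Log2 signals of 11.89, 11.56 and 11.47 in A/J CBDL stood against 10.17, 10.22 and 10.51 in A/J sham for Msmo1, the next demethylase of the pathway. Its groups did not overlap either, and it rose by 1.34 (standard error 0.20, adjusted p = 0.0122).

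Fdft1, squalene synthase, the first enzyme committed to sterols, rose by 1.39 (adjusted p = 0.00682), and the dimmer of its 2 probe sets rose by 1.28 (adjusted p = 0.00434). Across A/J CBDL the log2 signal was 10.47, 10.35 and 10.35, and in A/J sham 9.20, 9.25 and 9.28, for Hmgcs1, the HMG-CoA synthase of the mevalonate part. The sham arrays lay within 0.1 of each other, well below the CBDL arrays, and the gene rose by 1.15 (standard error 0.15, adjusted p = 0.00717). Sqle, squalene epoxidase, rose by 1.24 (adjusted p = 0.0122). Signals of 11.21, 11.24 and 11.03 on the A/J CBDL arrays compared with 9.76, 9.97 and 9.86 on the A/J sham arrays for Insig1, a sterol sensor partner that retains SREBP in the endoplasmic reticulum and is itself an SREBP target. It rose by 1.30 (standard error 0.18, adjusted p = 0.00869).

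The calls of Msmo1 and Sqle ended without A/J sham 2 (adjusted p = 0.068 and 0.0556), and that of Sqle also without A/J CBDL 2 (0.0653). Without that sham array 4 of the 23 genes were called higher, and 11 without A/J sham 3.

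The promoters of these genes are printed because the genes rose together. Sequences are the 250 bases before the start in RefSeq (GRCm38.p6), read 5′ to 3′ on the gene's strand. Capitals mark CCAAT, the NF-Y box (or ATTGG, its reverse complement), and CACCCCAC, a core of the sterol regulatory element (searched on both strands), and the marked motifs do not overlap.
Hmgcs1, chr13:119690101-119690350 (+): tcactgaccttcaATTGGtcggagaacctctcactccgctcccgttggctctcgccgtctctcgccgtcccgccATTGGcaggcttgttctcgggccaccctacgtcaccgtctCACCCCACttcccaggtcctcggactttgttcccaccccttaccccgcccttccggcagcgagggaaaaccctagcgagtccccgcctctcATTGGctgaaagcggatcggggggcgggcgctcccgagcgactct
Msmo1, chr8:64733579-64733828 (-): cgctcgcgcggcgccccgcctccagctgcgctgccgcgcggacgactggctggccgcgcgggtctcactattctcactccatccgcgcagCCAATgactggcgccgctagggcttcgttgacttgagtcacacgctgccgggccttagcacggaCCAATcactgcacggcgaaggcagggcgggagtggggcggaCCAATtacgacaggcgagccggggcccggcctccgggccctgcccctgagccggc
Insig1, chr5:28071162-28071411 (+): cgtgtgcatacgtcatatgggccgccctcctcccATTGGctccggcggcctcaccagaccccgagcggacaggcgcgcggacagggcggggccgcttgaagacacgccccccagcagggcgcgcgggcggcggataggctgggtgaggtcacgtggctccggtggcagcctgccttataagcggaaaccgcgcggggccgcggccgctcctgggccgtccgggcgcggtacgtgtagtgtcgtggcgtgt

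Hmgcs1 and Msmo1 each hold 3 copies of the NF-Y box and Insig1 holds 1. Of the 13 genes called, 10 are in the promoter table and 10 of these hold the box, as do 7 of 9 uncalled list members and 37.5% of all 27025 genes. The sterol core was found in 1 of the 10 (Hmgcs1, 136 bases before the start) and in 2.98% of all genes. A match is a description of letters in this window and not a binding site.

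**Figure D2:**
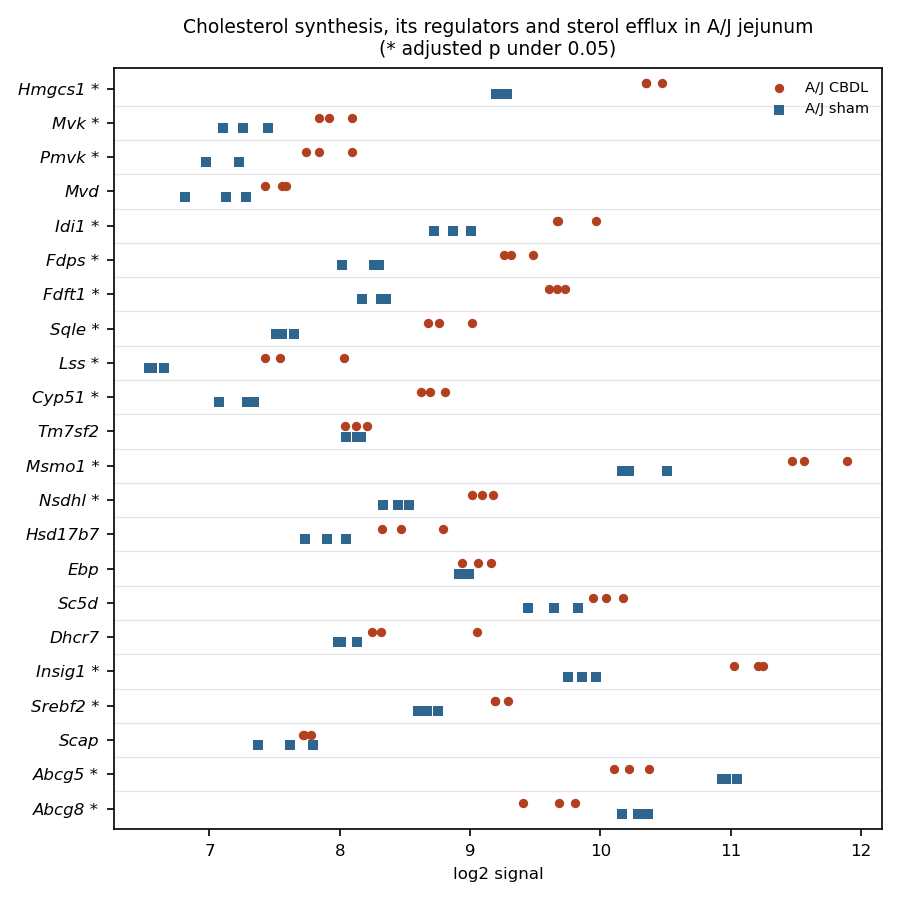
Log2 signal (horizontal axis) of genes of cholesterol synthesis, its regulators and the sterol pump, with 1 point per A/J CBDL or A/J sham array and an asterisk for each called gene. CBDL arrays lie to the right of all sham arrays for every called gene of synthesis, such as Cyp51 (mean 8.71 against 7.24), and to the left for Abcg5 (10.23 against 10.98) and Abcg8, while they overlap for the uncalled Tm7sf2, Ebp and Scap.

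The sterol pump ran the other way. Abcg5 had log2 signals of 10.22, 10.37 and 10.10 in A/J CBDL and 10.97, 10.93 and 11.05 in A/J sham, and Abcg8 had 9.68, 9.81 and 9.41 in A/J CBDL, against 10.29, 10.36 and 10.17 in A/J sham. Groups did not overlap for either gene. Abcg5 fell by 0.75 (standard error 0.13, adjusted p = 0.0225) and Abcg8 fell by 0.64 (standard error 0.12, adjusted p = 0.0355). These were 2 of 28 genes of lipid absorption and sterol efflux, of which none was higher and the median was -0.05. Npc1l1, the cholesterol importer of the brush border, had -0.46 (adjusted p = 0.269), and Fabp1, Mttp and Apob had -0.05, -0.14 and -0.12 and were not called. The genes of this pair, whose products form 1 pump, are transcribed away from each other from a short shared stretch, printed here as the region between their starts, in which capitals mark TTATCT, the reverse complement of the GATA motif AGATAA.
Abcg5-Abcg8, chr17:84683012-84683120 (+): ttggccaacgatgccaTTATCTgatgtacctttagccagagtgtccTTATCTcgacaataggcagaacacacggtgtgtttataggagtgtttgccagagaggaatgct

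The stretch of 109 bases holds 2 copies of the motif, on 1 strand. Over all genes, 4.65% hold at least 1 copy, on either strand, in the 109 bases before the start and 0.222% at least 2. The calls of Abcg5 and Abcg8 ended without A/J CBDL 1 or 3 or A/J sham 1 or 2 (adjusted p up to 0.0797 and 0.147). Both also ended with the 6 A/J arrays alone.

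Few genes of fatty acid metabolism were called. Of 23 genes of fatty acid synthesis, 2 were higher, with a median of 0.16. The A/J CBDL signals were 8.12, 8.23 and 8.12 and the A/J sham signals 7.57, 7.67 and 7.54 for Fasn, fatty acid synthase, which rose by 0.56 (adjusted p = 0.00976), but was not called in the fit of the 6 A/J arrays alone (adjusted p = 0.094). Lpin1, a phosphatidate phosphatase of triglyceride synthesis, rose by 0.55 (adjusted p = 0.0496), a call that ended without A/J CBDL 1 or 2 or A/J sham 1 or 2 (adjusted p up to 0.171). It also ended after quantile normalization (0.0595), with medians subtracted (0.069), with the trended robust prior (0.0566) and with the 6 A/J arrays alone (0.205). Of 38 PPARA targets and genes of fatty acid oxidation, 1 was higher and 1 lower, with a median of 0.00. Angptl4, a secreted inhibitor of lipoprotein lipase, rose by 1.84 (adjusted p = 0.0276), and Acsf2, a medium-chain acyl-CoA synthetase, fell by 0.97 (adjusted p = 0.018). Both calls ended without A/J CBDL 1 or A/J sham 1 or 2, that of Angptl4 also without A/J CBDL 2 and that of Acsf2 without A/J CBDL 3 (adjusted p up to 0.107 and 0.0916). Acsl1, an acyl-CoA synthetase named through the paper's table, rose by 0.97 (adjusted p = 0.0161), a call that ended without A/J CBDL 1 or A/J sham 2 (adjusted p up to 0.0682).

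**Figure D3:**
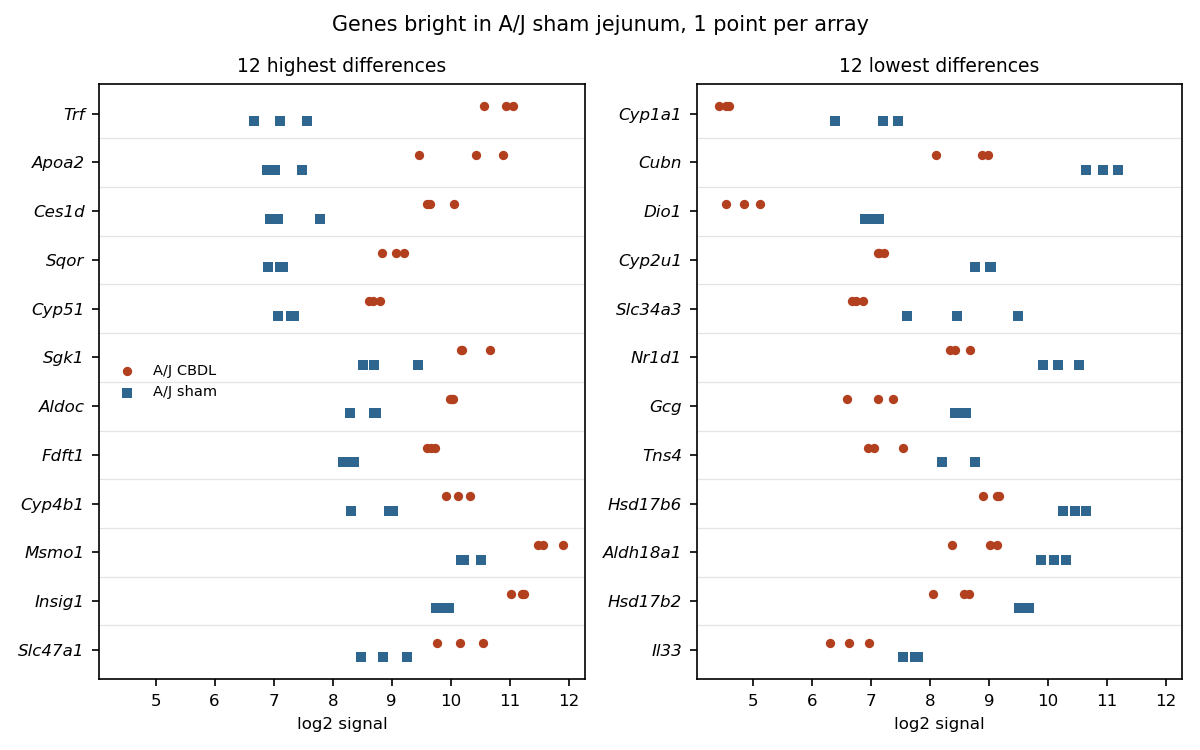
Log2 signal (horizontal axis) on each A/J CBDL and A/J sham array of the 12 named genes with the largest increases (left) and the 12 with the largest decreases (right) among genes bright in A/J sham. In every row the 3 CBDL arrays and the 3 sham arrays are separate.

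Other genes bright in A/J sham rose as well. Of the 43 such genes called higher, 3 belong to the liver lists (hepatocyte, acute phase, coagulation or complement), and 2 of these, Trf and Apoa2, had the largest increases. Few members of these lists are bright. Plasma proteins, hepatocyte enzymes, acute phase, coagulation and complement hold 3, 9, 6, 2 and 6, with overlap, of 6312 bright genes. Log2 signals of 10.56, 10.94 and 11.06 in A/J CBDL stood against 6.66, 7.11 and 7.57 in A/J sham for Trf, transferrin, the iron carrier of plasma. The sham arrays lay near the line between dim and bright, far below the CBDL arrays, and Trf rose by 3.74 (standard error 0.43, adjusted p = 0.00434). Apoa2, an apolipoprotein of high density lipoprotein, rose by 3.14 (adjusted p = 0.00678). The remaining one is Upb1, a liver enzyme of pyrimidine breakdown, with an increase of 0.90. Ces1d, a carboxylesterase on none of these lists, rose by 2.50 (adjusted p = 0.0123).

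Increases outside the liver lists included enzymes, a transporter and a protease. Over A/J CBDL the log2 signal was 9.07, 9.20 and 8.84, and in A/J sham 7.10, 6.90 and 7.16, for Sqor, which oxidizes hydrogen sulfide in mitochondria. The arrays of each group lay within 0.4 of each other and Sqor rose by 1.99 (standard error 0.15, adjusted p = 0.000538). Signals of 10.01, 9.99 and 10.03 on the A/J CBDL arrays compared with 8.70, 8.30 and 8.73 on the A/J sham arrays for Aldoc, an aldolase of glycolysis, which rose by 1.43 (adjusted p = 0.0366). Cyp4b1, a cytochrome P450 that hydroxylates fatty acids and xenobiotics, rose by 1.36 (adjusted p = 0.00678), but was not called with the 6 A/J arrays alone (adjusted p = 0.0657). Slc47a1, an exporter of organic cations, rose by 1.29 (adjusted p = 0.0283). St14, matriptase, a membrane protease that supports the epithelial barrier, was the 1 member of 34 tight junction and adhesion genes that was called. St14 had log2 signals of 10.68, 10.73 and 10.68 in A/J CBDL and 10.03, 10.33 and 10.19 in A/J sham, an increase of 0.51 (standard error 0.09, adjusted p = 0.0274). The call of Aldoc ended without any A/J array but A/J sham 3 (adjusted p up to 0.153), that of Slc47a1 without A/J CBDL 1 or 2 or A/J sham 1 or 2 (up to 0.112), that of St14 without any of the 3 A/J CBDL arrays or A/J sham 1 (up to 0.102) and that of Ces1d without A/J CBDL 2 or A/J sham 2 (up to 0.0682). With medians subtracted, Aldoc and St14 were not called (adjusted p = 0.0524 and 0.0555). With the 6 A/J arrays alone, St14 (0.182) and Slc47a1 were not called.

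Genes that fell among those bright in A/J sham included enzymes of xenobiotic and steroid metabolism. Arrays of A/J CBDL had signals of 4.59, 4.54 and 4.42, and those of A/J sham 6.38, 7.21 and 7.46, for Cyp1a1, a cytochrome P450 induced through the aryl hydrocarbon receptor. The gene fell by 2.50 (standard error 0.33, adjusted p = 0.00717), the largest decrease among the called probe sets. Log2 signals of 7.22, 7.11 and 7.13 in A/J CBDL stood against 8.75, 9.03 and 9.02 in A/J sham for Cyp2u1, which hydroxylates long-chain fatty acids. The groups were separated by more than 1.5, and Cyp2u1 fell by 1.78 (standard error 0.15, adjusted p = 0.00081). Across A/J CBDL the log2 signal was 9.17, 8.89 and 9.13, and in A/J sham 10.25, 10.64 and 10.45, for Hsd17b6, a hydroxysteroid dehydrogenase that also acts on retinol. It fell by 1.39 (standard error 0.13, adjusted p = 0.00161). Hsd17b2, which inactivates estradiol and testosterone, fell by 1.14 (adjusted p = 0.0123), a call that ended without A/J sham 2 (adjusted p = 0.0682).

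The 46 measured cytochromes P450 of xenobiotics went both ways, with 4 higher, 2 lower and a median of 0.15. Beside Cyp1a1 and Cyp2u1, which fell, the 4 that rose were Cyp4b1 and the dim, liver-type Cyp2e1, Cyp2c39 and Cyp2c70. Signals of 6.31, 7.04 and 6.17 on the A/J CBDL arrays compared with 3.36, 3.05 and 3.28 on the A/J sham arrays for Cyp2c39, which rose by 3.28 (adjusted p = 0.00102). Of 45 conjugating enzymes, Ces1d, Sult1a1 and Mgst1 were higher and none lower, with a median of 0.05. Sult1a1, a phenol sulfotransferase, rose by 1.33 (adjusted p = 0.00102), and Mgst1, a microsomal glutathione transferase, rose by 1.00 (adjusted p = 0.0409). The call of Mgst1 ended without any A/J array but A/J sham 1 (adjusted p up to 0.168), with medians subtracted (0.0553) and with the 6 A/J arrays alone (0.0662).

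Single genes of absorption fell while most did not pass the test. With CBDL the arrays of A/J mice gave 8.87, 8.10 and 8.98, and with sham 10.64, 11.19 and 10.93, for Cubn, the enterocyte receptor for intrinsic factor with vitamin B12. The CBDL arrays were the 3 lowest, and Cubn fell by 2.27 (standard error 0.24, adjusted p = 0.00298). It was the 1 gene called among 39 genes of vitamin and mineral uptake (median -0.06). The A/J CBDL signals were 6.87, 6.68 and 6.75 and the A/J sham signals 7.61, 9.49 and 8.45 for Slc34a3, a sodium-phosphate cotransporter. The sham arrays spread over nearly 2 log2 units, and the gene fell by 1.75 (standard error 0.35, adjusted p = 0.0472), a call that ended without any A/J array but A/J sham 1 (adjusted p up to 0.151), with the trended robust prior (0.0508) or with the 6 A/J arrays alone (0.235). Slc2a5, the fructose transporter, was the 1 call among 43 genes of brush border digestion and nutrient transport (median -0.12), and it fell by 0.64 (standard error 0.10, adjusted p = 0.018). This call ended without A/J CBDL 2 or 3 or A/J sham 2 (adjusted p up to 0.0843).

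Aqp8, a water channel, was the 1 call among 32 genes of ion and water transport (median -0.07). The largest difference of this list was that of Car1, a carbonic anhydrase, with 7.76, 7.93 and 7.50 in A/J CBDL and 4.50, 4.70 and 4.03 in A/J sham. That difference of 3.32 was not called (adjusted p = 0.0587). Aqp8 had log2 signals of 5.50, 5.35 and 5.60 in A/J CBDL and 7.26, 6.92 and 6.73 in A/J sham. The groups were more than 1 log2 unit apart, and Aqp8 fell by 1.48 (standard error 0.18, adjusted p = 0.00547). Over A/J CBDL the log2 signal was 4.55, 5.11 and 4.85, and in A/J sham 6.98, 7.14 and 6.90, for Dio1, the deiodinase that activates thyroid hormone. It fell by 2.17 (standard error 0.30, adjusted p = 0.00822), and the call ended without A/J sham 2 (adjusted p = 0.0507). Tns4, a tensin of focal adhesions, fell by 1.39 (adjusted p = 0.0203), a call that ended without A/J CBDL 1 or 2 or A/J sham 2 (adjusted p up to 0.102). Of 20 genes of bile acid sensing and transport, the 1 called was Slc10a1, the bile acid importer of hepatocytes, which rose by 2.60 (adjusted p = 0.0155) while dim in sham. That call ended without A/J CBDL 2 or A/J sham 1 or 2 (adjusted p up to 0.0805). Slc51a, a subunit of the basolateral bile acid exporter of enterocytes, had -0.72 (adjusted p = 0.0816), Nr1h4, the bile acid receptor FXR, 0.48 (adjusted p = 0.19) and Nr0b2, its target SHP, -0.44 (adjusted p = 0.468).

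Among 27 enteroendocrine genes, 2 fell and none rose, with a median of -0.08. Signals of 6.60, 7.36 and 7.12 on the A/J CBDL arrays compared with 8.51, 8.61 and 8.41 on the A/J sham arrays for Gcg, which encodes proglucagon, the precursor of glucagon-like peptides. CBDL arrays were all below sham arrays, and Gcg fell by 1.48 (standard error 0.22, adjusted p = 0.0104), a call that ended without A/J sham 2 (adjusted p = 0.0613). With CBDL the arrays of A/J mice gave 4.60, 4.63 and 4.62, and with sham 5.21, 5.19 and 5.28, for Ffar1, with which enteroendocrine cells sense long-chain fatty acids. The signal is dim, but the spread within a group was under 0.1, and Ffar1 fell by 0.61 (standard error 0.07, adjusted p = 0.00491). With the 6 A/J arrays alone it was not called (adjusted p = 0.0561).

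In arginine metabolism, 2 of 20 genes rose and 2 fell, with a median of -0.02. Arrays of A/J CBDL had signals of 10.46, 10.61 and 10.48, and those of A/J sham 11.71, 11.51 and 11.43, for Oat, ornithine aminotransferase. It fell by 1.03 (standard error 0.11, adjusted p = 0.0029). Aldh18a1, which makes the glutamate semialdehyde that Oat turns into ornithine, fell by 1.25 (adjusted p = 0.0315), a call that ended without any A/J array but A/J sham 3 (adjusted p up to 0.119). Log2 signals of 7.31, 8.14 and 7.45 in A/J CBDL stood against 5.90, 6.35 and 5.81 in A/J sham for Ddah1, which degrades an inhibitor of nitric oxide synthase. It rose by 1.62 (standard error 0.21, adjusted p = 0.00717), but was not called with the 6 A/J arrays alone (adjusted p = 0.0651). Arg1, the arginase of the liver, rose by 2.88 (adjusted p = 0.00709). Probe sets shared by Ass1 and Gm5424 rose by 2.31 and 2.17, and Ass1, argininosuccinate synthetase, cannot be read apart from the other name there.

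Transcripts dim in A/J sham and higher in A/J CBDL were led by secreted liver proteins. Of 111 such genes, 54 belong to the hepatocyte, acute phase, coagulation or complement lists, and of the 82 that rose over 2-fold, 52 do. For scale, the lists of plasma proteins, hepatocyte enzymes, acute phase, coagulation and complement hold 34, 32, 30, 31 and 23 dim genes, with overlap. All dim genes number 13626. Of 37 plasma proteins of hepatocytes, 30 were higher and 0 lower, with a median of 2.94. Across A/J CBDL the log2 signal was 12.15, 12.63 and 12.25, and in A/J sham 5.47, 5.31 and 8.44, for Alb, the main carrier protein of plasma. A/J sham 3 was nearly 3 log2 units above the other sham arrays but still far below the CBDL arrays, and Alb rose by 5.94 (standard error 0.69, adjusted p = 0.00434). Signals of 9.88, 11.07 and 10.44 on the A/J CBDL arrays compared with 4.50, 4.17 and 5.14 on the A/J sham arrays for Ahsg, fetuin-A. It rose by 5.86 (standard error 0.63, adjusted p = 0.00298). With CBDL the arrays of A/J mice gave 10.23, 10.26 and 10.98, and with sham 5.17, 5.09 and 5.54, for Hpx, the heme carrier hemopexin, which rose by 5.22 (adjusted p = 0.00112).

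Serum carriers and protease inhibitors rose beside them. Pzp, a broad protease inhibitor, rose by 4.20 (adjusted p = 0.00396). Serpina1c, an alpha-1 antitrypsin, rose by 4.92 (adjusted p = 0.00396), while 2 probe sets shared by 5 Serpina1 genes rose by 4.58 and 4.24. These paralogs are nearly identical, so the increase cannot be assigned to 1 of them. Gc, the vitamin D carrier named through the paper's table, rose by 5.71 (adjusted p = 0.00173). Cp, the copper oxidase ceruloplasmin, rose by 3.47 (adjusted p = 0.000538). Without A/J sham 2, 20 of the 37 genes were called, and 28 without A/J sham 3.

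Hepatocyte enzymes and transporters also had more calls than genes at large. Of 41 enzymes and transporters, 13 were higher and 0 lower, with a median of 1.09. The A/J CBDL signals were 8.97, 9.75 and 9.42 and the A/J sham signals 4.97, 4.99 and 4.81 for Cyp2e1, a cytochrome P450 of ethanol oxidation. The sham arrays lay within 0.2 of each other, and Cyp2e1 rose by 4.46 (standard error 0.62, adjusted p = 0.00869). Mat1a, which makes S-adenosylmethionine in the liver, rose by 4.17 (adjusted p = 0.00717), and Tat, tyrosine aminotransferase, rose by 3.64 (adjusted p = 0.00392). Bhmt, which remethylates homocysteine, rose by 3.97 (adjusted p = 0.00453), and a dimmer probe set of it rose by 4.17, but the third set, dim on every A/J array, had 0.69 and was not called (adjusted p = 0.184). The count of 13 became 6 without A/J sham 2.

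The lists were compared array by array. The 41 enzymes and transporters averaged 7.30, 7.59 and 7.26 on the A/J CBDL arrays, against 5.89, 5.82 and 5.96 on the A/J sham arrays. The 37 plasma proteins averaged 8.07, 8.60 and 8.44 in A/J CBDL and 5.23, 5.22 and 5.48 in A/J sham. None of 20 genes of other liver cells was called, with a median of 0.13, 14 positive and 6 negative differences. This list averaged 6.67, 6.74 and 6.81 in A/J CBDL and 6.50, 6.59 and 6.60 in A/J sham, so its groups did not overlap either. The same arrays carry the acute phase, coagulation, complement, arginine and IGF1 results, and the part of hepatocyte RNA in them was not tested. In B6 mice the plasma protein list averaged 8.25 in CBDL and 6.89 in sham, and the 3 B6 sham arrays ranged from 6.04 to 7.85.

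**Figure D4:**
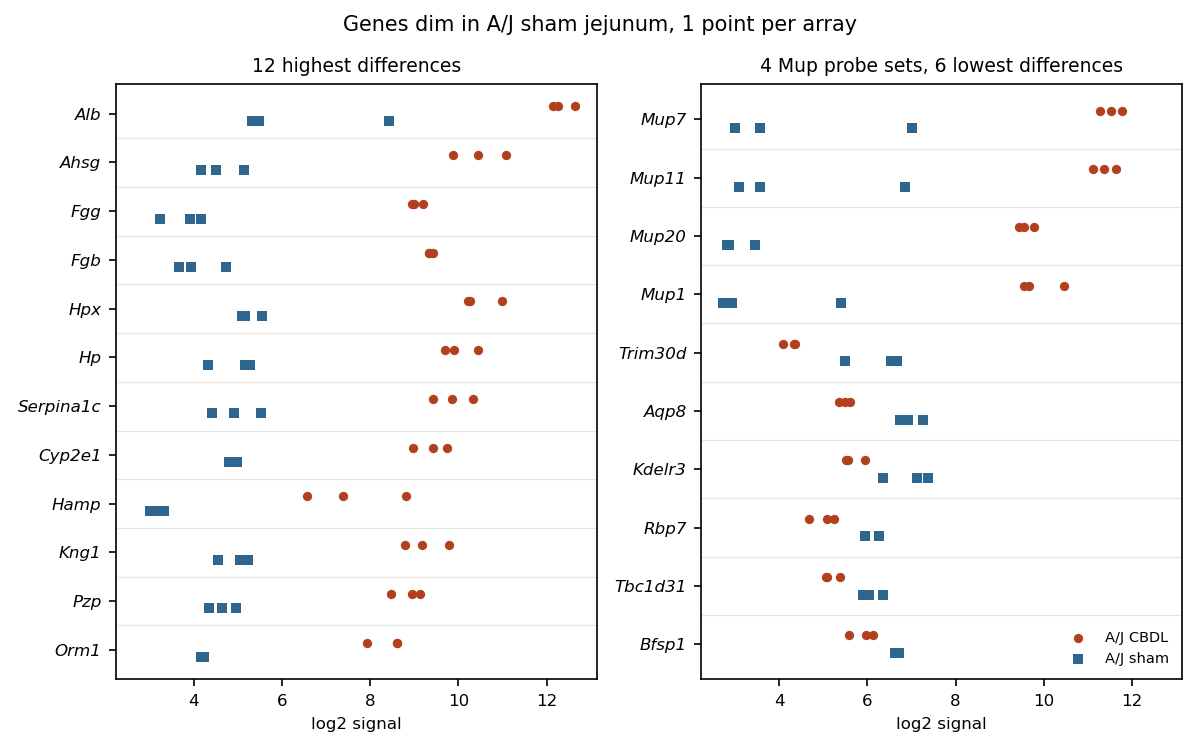
Log2 signal (horizontal axis) on each A/J CBDL and A/J sham array of the 12 named genes with the largest increases among genes dim in A/J sham (left), and of 4 Mup probe sets and the 6 genes with the largest decreases (right). Alb shows 1 sham array (8.44) away from the other sham arrays (5.47 and 5.31), and in every row the groups are separate.

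The promoter of Alb, whose transcript shows the largest increase of a gene with a single name, and that of Fgb hold GTTAAT (or ATTAAC, its reverse complement), a core of the site of the hepatocyte nuclear factor HNF1, in capitals in the 250 bases before the start (RefSeq, GRCm38.p6).
Alb, chr5:90460620-90460869 (+): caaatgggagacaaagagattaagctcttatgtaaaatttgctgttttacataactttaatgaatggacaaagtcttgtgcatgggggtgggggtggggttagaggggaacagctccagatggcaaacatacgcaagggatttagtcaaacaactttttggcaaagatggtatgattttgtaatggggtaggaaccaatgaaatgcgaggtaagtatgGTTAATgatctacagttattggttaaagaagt
Fgb, chr3:83049864-83050113 (-): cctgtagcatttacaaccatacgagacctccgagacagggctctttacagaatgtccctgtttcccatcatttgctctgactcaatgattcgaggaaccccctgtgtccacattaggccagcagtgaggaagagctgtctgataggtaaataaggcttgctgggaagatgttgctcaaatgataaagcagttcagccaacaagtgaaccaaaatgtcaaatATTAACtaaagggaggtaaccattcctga

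This core lies 32 bases before the start in Alb and 29 in Fgb. It was found on either strand in 6 of the 22 called plasma protein genes that are in the table (27.3%), in 1 of 6 uncalled ones and in 7.49% of all genes. Fgg, for one, holds none in this window.

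The acute phase list overlaps the plasma proteins. Of 36 acute phase genes, 20 were higher and 0 lower, with a median of 2.16, and the list averaged 7.58, 7.30 and 7.43 in A/J CBDL and 5.22, 5.25 and 5.22 in A/J sham. Log2 signals of 9.91, 9.70 and 10.44 in A/J CBDL stood against 4.33, 5.17 and 5.27 in A/J sham for Hp, haptoglobin, which binds free hemoglobin. It rose by 5.09 (standard error 0.58, adjusted p = 0.00398). Over A/J CBDL the log2 signal was 8.61, 7.93 and 8.61, and in A/J sham 4.24, 4.16 and 4.19, for Orm1, an acid glycoprotein. The sham arrays differed by less than 0.1, and Orm1 rose by 4.19 (standard error 0.44, adjusted p = 0.00298). Signals of 6.57, 8.80 and 7.38 on the A/J CBDL arrays compared with 3.01, 3.21 and 3.34 on the A/J sham arrays for Hamp, hepcidin, the hormone that limits iron export from enterocytes. The CBDL arrays spread over more than 2 log2 units, and Hamp rose by 4.40 (standard error 0.73, adjusted p = 0.0203), a call that ended without A/J CBDL 2 or 3 or A/J sham 1 or 2 (adjusted p up to 0.0855).

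Apcs, serum amyloid P, rose by 3.20 (adjusted p = 0.000704), and Fgl1, a fibrinogen-like protein, rose by 3.80 (adjusted p = 0.00115). With CBDL the arrays of A/J mice gave 9.13, 7.23 and 8.93, and with sham 5.35, 4.97 and 5.13, for Lcn2, which withholds iron from bacteria and is made by epithelia as well as by liver. A/J CBDL 2 was the lowest of its group, and Lcn2 rose by 3.28 (standard error 0.41, adjusted p = 0.00678). Arrays of A/J CBDL had signals of 6.23, 5.04 and 6.45, and those of A/J sham 3.43, 2.91 and 2.85, for Saa1, serum amyloid A, an increase of 2.84 (adjusted p = 0.0372). Its call ended without any A/J array but A/J CBDL 2 (adjusted p up to 0.145). These were the 2 calls among 34 antimicrobial and epithelial defense genes, whose median was 0.09. None of 7 Paneth cell genes was called, but probe sets of the alpha-defensins Defa5 and Gm15315, named through the paper's table, rose by 1.33 and 1.36 (adjusted p = 0.0451 and 0.0366), calls that ended without any A/J array but A/J sham 1 (adjusted p up to 0.176 and 0.154) or with the 6 A/J arrays alone. The call of Defa5 also ended after quantile normalization (0.053) and with medians subtracted (0.0506). Probe sets named Gm14850 and Gm10104 in the same table had 1.38 and 1.16 and were not called (adjusted p = 0.0517 and 0.0539).

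Coagulation genes, many of them secreted by the liver, also rose. Of 33 genes of coagulation and fibrinolysis, 10 were higher and 0 lower, with a median of 0.66. Log2 signals of 8.998, 9.20 and 8.95 in A/J CBDL stood against 3.23, 3.92 and 4.17 in A/J sham for Fgg, a fibrinogen chain. Every A/J sham array was dim, and Fgg rose by 5.28 (standard error 0.47, adjusted p = 0.00102). Fgb, another chain, rose by 5.26 (adjusted p = 0.00137). Fga, the remaining chain, rose by 1.64 (adjusted p = 0.00832) in its brightest probe set, whereas the other set of Fga had 0.55 and was not called (adjusted p = 0.122).

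Kng1, a kininogen, rose by 4.30 (adjusted p = 0.00622), and Plg, plasminogen, rose by 2.65 (adjusted p = 0.0124). The other called members were F2 (2.60), F9 (1.35), Kng2 (2.09), Serpinc1 (2.07) and Hrg (2.81). Without A/J CBDL 2, 4 of the 33 were called, and the call of Plg ended there and without A/J sham 2 (adjusted p up to 0.068). Of 29 complement genes 4 were higher and 0 lower, with a median of 0.33. They were C4bp, which rose by 2.14 (adjusted p = 0.00717), Cfi, which rose by 1.99 (adjusted p = 0.00916), C8a (1.90) and C4b (0.90). C4bp and Cfi restrain complement, and C8a is part of the membrane attack complex. Without A/J sham 2, 1 complement gene was called. The call of Cfi ended without A/J sham 2 (adjusted p = 0.0567), that of C8a without any 1 A/J array (up to 0.123) and that of C4b without any but A/J sham 3 (up to 0.127).

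Major urinary proteins, small lipocalins that the mouse liver secretes, had the largest increases of all called probe sets. Their called probe sets have no name in the platform table, and the names come from the paper's table of regulated probe sets. The family is made of nearly identical copies, so 1 transcript can light several probe sets, and these are not independent. Over 10 probe sets (Mup1, Mup2, Mup7, Mup11 and Mup20), the median log2 signal was 11.58, 11.34 and 11.10 on the A/J CBDL arrays and 3.06, 3.57 and 6.84 on the A/J sham arrays. A/J sham 3 was again the highest sham array, by more than 3, and remained below the CBDL arrays. The 10 sets rose by 6.21 to 7.00 (standard errors 0.83 to 0.98, adjusted p = 0.00717 to 0.0123). Mup4 had a lower signal and rose by 1.26 (adjusted p = 0.004). Mup3 had log2 signals of 8.56, 8.89 and 7.68 in A/J CBDL and 5.65, 5.58 and 5.49 in A/J sham, with a difference of 2.80 that was not called (adjusted p = 0.0809). The calls of the 9 sets other than Mup20 held in each A/J array left out, and that of Mup20 ended without A/J CBDL 2 or A/J sham 2 (adjusted p up to 0.068).

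The B6 arrays gave another picture of the same probe sets, with a median of 8.61 in B6 CBDL and 11.27 in B6 sham. The log2 difference in B6 mice ran from -3.03 to 1.09 over the 10 sets and none was called (adjusted p at least 0.291). The test of the difference between the strains, the interaction of strain and operation, was called for 13 probe sets in all (0.0366%). It was called for 10 Mup probe sets, including Mup4, as well as for Sqor, Ffar1 and Srd5a2, a steroid reductase named through the paper's table. Srd5a2 had a difference of 0.07 in A/J mice, which was not called (adjusted p = 0.897), and rose by 1.77 in B6 CBDL (adjusted p = 0.00755). In Sqor the B6 arrays were high in both groups, with means of 9.25 in B6 CBDL and 8.83 in B6 sham. For Ffar1 the B6 means were 4.62 in CBDL and 4.44 in sham. All these interaction tests had an adjusted p of 0.0476, just under the threshold, and none of the 12 other than Srd5a2 was called in 10 of the 12 fits that left out 1 array. The exceptions were the fits without A/J sham 3 or B6 sham 1, in which Sqor and Ffar1 were not called. For Alb, the means were 12.13 in B6 CBDL and 11.53 in B6 sham, and its interaction (5.33) was not called (adjusted p = 0.244).

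Several targets of the glucocorticoid receptor rose. Of 33 genes 9 were higher and 0 lower, with a median of 0.68, and the list averaged 8.01, 7.78 and 7.59 in A/J CBDL and 6.74, 6.91 and 6.90 in A/J sham. Signals of 10.63, 10.14 and 8.26 on the A/J CBDL arrays compared with 5.71, 6.04 and 6.58 on the A/J sham arrays for Fkbp5, a chaperone partner of the receptor and a classical target. A/J CBDL 3 was the lowest of its group and above every sham array, and Fkbp5 rose by 3.57 (standard error 0.51, adjusted p = 0.00987). With CBDL the arrays of A/J mice gave 10.66, 10.20 and 10.17, and with sham 8.52, 8.71 and 9.44, for Sgk1, a kinase that raises sodium uptake. Its groups were separate, and Sgk1 rose by 1.45 (standard error 0.26, adjusted p = 0.0304). The other members called were Tat, Lcn2, Sult1a1, Angptl4, Hsd11b1 (1.38), Cry1 and Lpin1. Tat and Sult1a1 are also on the list of hepatocyte enzymes, whose means are given above, and the part of hepatocyte RNA in this result was not tested. Zbtb16 (1.96), Pdk4 (1.82) and Tsc22d3 (0.99), further targets, were not called (adjusted p = 0.0585, 0.0519 and 0.0582). The count of 9 became 3 without A/J CBDL 2 and 12 without A/J sham 3. The call of Fkbp5 ended without A/J CBDL 2 or A/J sham 2 (adjusted p up to 0.0576), and that of Sgk1 without any A/J array but A/J sham 3 (up to 0.133). Neither gene was called with the 6 A/J arrays alone.

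In the circadian clock, 1 of 23 genes fell and 1 rose, with a median of 0.22. The A/J CBDL signals were 8.34, 8.43 and 8.67 and the A/J sham signals 9.92, 10.52 and 10.16 for Nr1d1, a repressor of the clock. The groups were more than 1.2 apart, and Nr1d1 fell by 1.72 (standard error 0.18, adjusted p = 0.00298). Log2 signals of 7.27, 7.35 and 7.35 in A/J CBDL stood against 6.43, 6.68 and 6.84 in A/J sham for Cry1, which inhibits the activators CLOCK and BMAL1 and which rose by 0.68 (adjusted p = 0.0316). The call of Cry1 ended without any A/J array but A/J sham 3 (adjusted p up to 0.115). Per1 and Per2 had 0.86 and 1.02 and were not called (adjusted p = 0.0866 and 0.114). The labels give no hour of harvest.

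Of the growth hormone and IGF1 axis, 2 of 24 genes rose and none fell, with a median of 0.19. Igf1 had log2 signals of 6.29, 6.61 and 5.99 in A/J CBDL and 4.94, 5.04 and 5.06 in A/J sham, an increase of 1.29 (standard error 0.21, adjusted p = 0.018) in the growth factor made mainly in liver. Igfbp4, a binding protein of it, rose by 1.10 (adjusted p = 0.0122). The calls ended without A/J CBDL 1 or 2 or A/J sham 1 or 2 for Igf1 (adjusted p up to 0.0823) and without A/J CBDL 2 for Igfbp4 (0.0613).

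Interferon-stimulated genes were low in A/J CBDL, mostly without passing the test. Of 40 genes 37 had a negative difference, 2 were lower and 0 higher, and the median was -0.43 against -0.03 over all genes. The list averaged 6.92, 6.94 and 6.91 on the A/J CBDL arrays and 7.22, 7.48 and 7.44 on the A/J sham arrays. Signals of 7.05, 6.88 and 7.08 on the A/J CBDL arrays compared with 7.88, 7.95 and 8.15 on the A/J sham arrays for Herc6, the mouse ligase that attaches ISG15 to proteins. It fell by 0.99 (standard error 0.18, adjusted p = 0.0316). Dhx58, an RNA sensor, fell by 0.66 (adjusted p = 0.0366). Ifit3 and Usp18 had -1.39 and -1.01 and were not called (adjusted p = 0.0914 and 0.118). A probe set shared by Isg15 and Gm9706 fell by 0.95 (adjusted p = 0.0425) and 1 shared by Gvin1 and related genes by 1.49 (adjusted p = 0.0366). The call of Herc6 ended without any 1 of the 6 A/J arrays (adjusted p up to 0.125) and that of Dhx58 without any but A/J sham 1 (up to 0.15), and the median of the list was -0.38 without A/J sham 3.

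With CBDL the arrays of A/J mice gave 4.36, 4.09 and 4.34, and with sham 5.49, 6.68 and 6.53, for Trim30d, of a family of interferon-induced regulators, the largest decrease among called dim genes. It fell by 1.97 (standard error 0.29, adjusted p = 0.0114), a call that ended without A/J CBDL 2 or A/J sham 2 (adjusted p up to 0.0613). Of 27 genes of the MHC and antigen processing, 24 had a negative difference, but none was called. The median of the list was -0.32, against -0.03 over all genes. A probe set of H2-Q1, a class I gene named through the paper's table, fell by 0.76 (adjusted p = 0.0122), but was not called with the 6 A/J arrays alone (adjusted p = 0.0906). Il33, an alarmin of epithelial and stromal cells, was the 1 call among 39 chemokines and cytokines (median -0.02), and it fell by 1.07 (standard error 0.19, adjusted p = 0.0299). The call ended without A/J CBDL 2 or 3 or A/J sham 2 (adjusted p up to 0.129). Retnlg, a neutrophil gene, was the 1 call among 33 neutrophil and macrophage genes (median 0.02). Retnlg had log2 signals of 5.39, 5.31 and 5.65 in A/J CBDL and 4.49, 4.36 and 4.69 in A/J sham, an increase of 0.94 (adjusted p = 0.0123) that was not called without A/J sham 2 (adjusted p = 0.0682). S100a8 and S100a9, which mark neutrophils, were dim in every A/J array (at most 4.71) and not called.

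**Figure D5:**
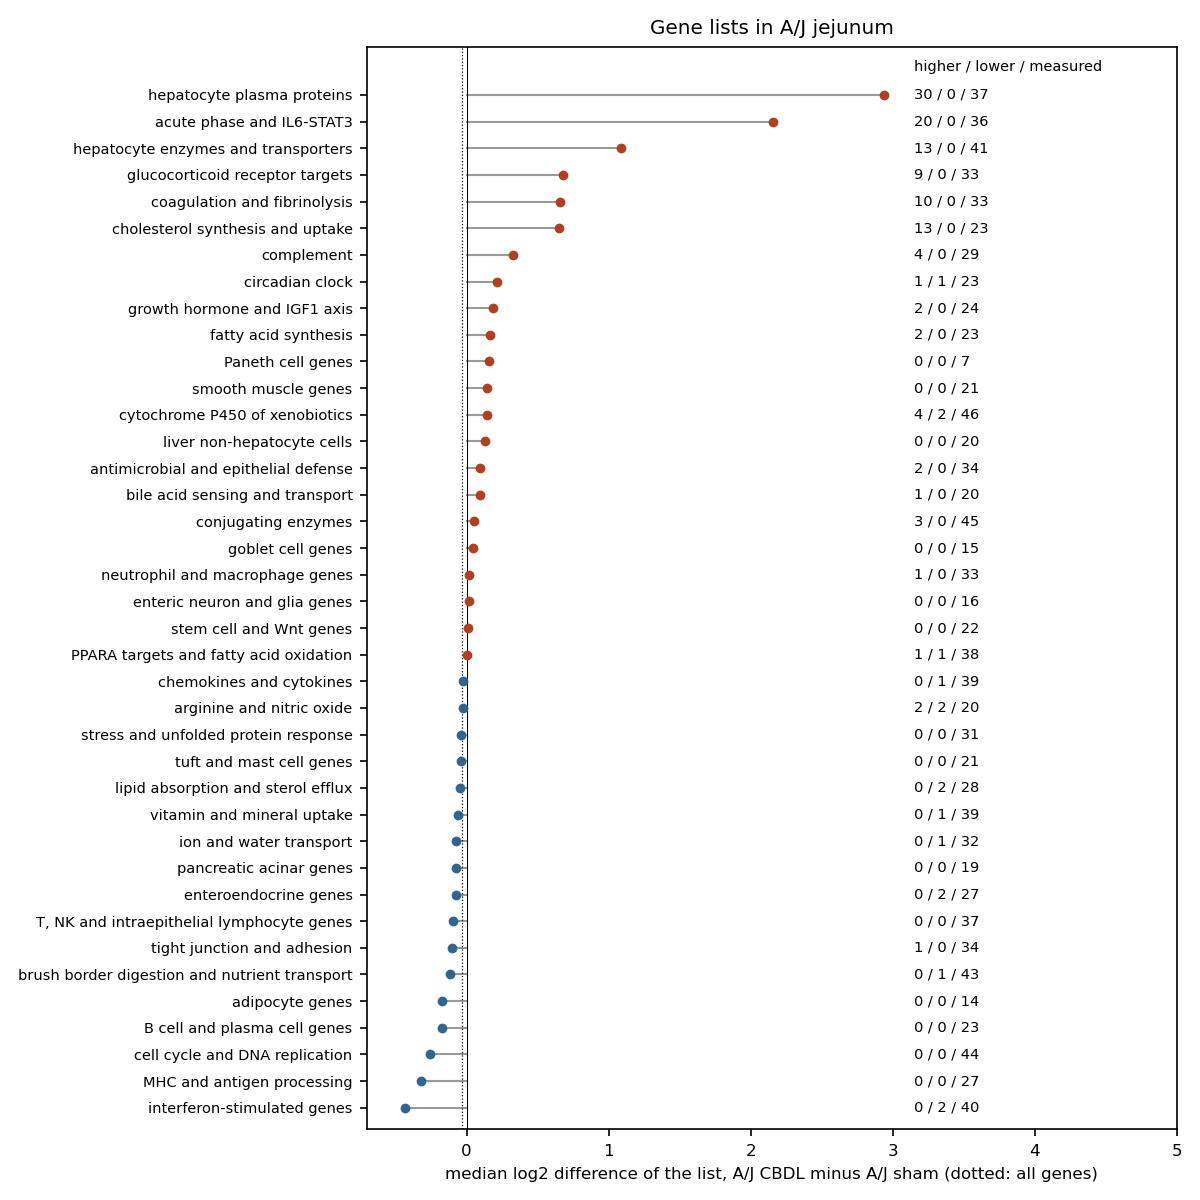
Median log2 difference of A/J CBDL minus A/J sham over the genes of each list (horizontal axis), with the numbers of genes higher, lower and measured at the right. The lists of plasma proteins (2.94), acute phase (2.16) and hepatocyte enzymes (1.09) lie farthest to the right, and the interferon-stimulated genes (-0.43) farthest to the left.

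Further dim genes fell. Kdelr3, which retrieves proteins to the endoplasmic reticulum, fell by 1.28 (adjusted p = 0.0404), and Rbp7, a retinol binding protein, fell by 1.05 (adjusted p = 0.0101). Rbp7 was not called with the 6 A/J arrays alone (adjusted p = 0.0778). Tbc1d31 and Bfsp1, a centrosomal protein and a filament protein of the lens, had -0.92 and -0.77 (adjusted p = 0.0203 and 0.0308). The call of Kdelr3 ended without any A/J array but A/J sham 1 (adjusted p up to 0.165), that of Bfsp1 without any but A/J CBDL 3 (up to 0.113) and that of Tbc1d31 without A/J CBDL 1 or 2 or A/J sham 2 (up to 0.0937).

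Several cell types and programmes of the gut had no called gene. These were the goblet cell (15 genes), tuft and mast cell (21), stem cell and Wnt (22), T and NK cell (37), B and plasma cell (23), smooth muscle (21), enteric neuron and glia (16), pancreatic acinar (19), adipocyte (14) and stress and unfolded protein (31) lists. Cell cycle and DNA replication had no call either among 44 genes. Of these, 35 had a negative difference (median -0.26, against -0.03 over all genes). That list averaged 6.35, 6.74 and 6.75 in A/J CBDL and 6.99, 6.65 and 6.91 in A/J sham, and the groups overlapped. With 3 arrays per group, a change too small for the test is not shown to be absent.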

How the data were processed

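The authors deposited log2 values, 1 per probe set and array, which per the labels come from RMA, run in the Expression Console of Affymetrix (versions not given in the sources used here) on Mouse Gene ST arrays. The methods of the paper name another array and GCRMA, and the labels were followed. The log2 values were used as deposited. Probe sets took names from the platform table, updated by gene ID for 21698 (1 name 21789, several 1621, none 12146). For unnamed probe sets that the paper lists as regulated, the name was read from its table, and no value. The brightest 1-name probe set over the 12 arrays stood for each of 19938 genes.

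All 12 arrays entered 1 fit with a mean per group (R 4.3.3, limma 3.58.1). Variances were moderated by eBayes, on 8 residual and 2.92 prior degrees of freedom. A call required a 2-sided p that stayed under 0.05 after Benjamini-Hochberg adjustment across the 35556 probe sets. The interaction used the same fit. Simulated data for A/J CBDL against A/J sham covered 35556 probe sets. Of these, 80 of 100 changed by 2-fold and 97 of 100 changed by 4-fold were recovered, with 10 false calls. All changed probe sets had a mean log2 signal of at least 7 over the 12 arrays, and each value had its own independent noise. These figures therefore do not cover changes in dimmer probe sets or arrays that deviate as a whole. The number of arrays, 3 per group, limits the precision.

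The text names the 12 highest and 12 lowest called differences among bright and the 12 highest and 6 lowest among dim probe sets with 1 name, up to 5 called members of each of 39 gene lists (1051 of 1175 listed genes measured), the Mup genes, Lcn2, and genes that define a list. Further genes were named after their values were seen. Some genes are not reported here. The genes, lists and rule were chosen with earlier results of these data known. Alternatives were the A/J arrays alone, filters on dim or unnamed probe sets, 2 scalings, a trended robust prior, array weights, a replicate block, a 2-fold minimum, other bright thresholds and each A/J array left out. The interaction under these settings, and with each of the 12 arrays left out, was added after the data were seen. The titles do not say whether equal array numbers pair the samples, and the main fit did not pair them.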

Additional observations from a re-analysis of the deposited data

Results flagged for a closer look

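By the test of the interaction, A/J and B6 mice differed in their response for 3 named genes besides the Mup probe sets. The log2 response of A/J mice minus that of B6 mice was 1.56 (standard error 0.21) for Sqor and -0.79 (standard error 0.10) for Ffar1. Sqor rose by 1.99 in A/J CBDL, against 0.43 in B6 CBDL, which was not called (adjusted p = 0.463). Ffar1 fell by 0.61 in A/J CBDL, against 0.18 in B6 CBDL, which was not called (adjusted p = 0.565). For Srd5a2, named through the paper's table, the same quantity was -1.71 (standard error 0.24), with 0.07 in A/J CBDL, which was not called, and an increase of 1.77 in B6 CBDL (adjusted p = 0.00755). Among the sham mice, Sqor was 7.05 in A/J and 8.83 in B6.

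For the major urinary proteins the same difference was 1.83 for Mup4, 9.76 for Mup7, 9.61 for Mup11 and 9.24 for Mup1. It was 9.59, 9.76, 9.06, 9.33, 9.34 and 9.21 for 6 probe sets named Mup2, which share near-identical sequence and are not independent. In B6 mice these probe sets varied widely between sham arrays (for Mup7 from 9.95 to 12.76) and were lower in B6 CBDL, without a call. Each of these tests had an adjusted p of 0.0476, and most were lost when an array or a setting was changed. The plasma protein list was higher with CBDL in A/J mice, as these sets were. In B6 mice the list averaged 8.25 in CBDL and 6.89 in sham, while these sets were lower in CBDL. Between single arrays, B6 sham 1 to 3 had 9.95, 11.64 and 12.76 for Mup7 and 10.69, 11.61 and 12.28 for Alb. The part of hepatocyte RNA in the Mup differences was not tested.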

How the results depend on the processing

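The count of 291 calls (110 bright, 181 dim) depended on the arrays and the fit. It was 90 to 605 when 1 A/J array was left out, fewest without A/J sham 2 and most without A/J sham 3, with 29 to 175 bright and 61 to 430 dim calls. It was 1299 (657 bright, 642 dim) with array weights, which put most weight on A/J sham 2 (2.57) and least on A/J sham 1 (0.38), and 565 (257 and 308) over probe sets with 1 name only. Of the bright calls, 37 were made with only the 6 A/J arrays, 176 without the 30% dimmest probe sets and 70 with the threshold at 8. Over 2-fold, 169 were called (42 bright). Other settings kept each count within 1.5 times.

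With the replicate number as a block, 61 probe sets were called (14 bright, 47 dim), 59 of them among the 291. Deviations of same-numbered arrays correlated at -0.31, -0.10 and -0.12, and no array deviated most like its own number. With 3 arrays per group, these correlations cannot show whether equal numbers pair the samples. The block ended the calls of 73 of 109 named probe sets. Among them were Cubn, Cyp1a1, Hmgcs1 and Mup7 (adjusted p = 0.0569, 0.0625, 0.0798 and 0.067).

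Of the named probe sets called in A/J mice, 12 were called for the interaction. This count became 0 over probe sets with 1 name, a filter that removes the 10 Mup sets before the test, 0 after quantile normalization, 0 with the trended robust prior and 0 with the replicate block. It was 11 without the dimmest probe sets, 11 with medians subtracted, 12 with array weights, and 0 to 19 with 1 of the 12 arrays left out, of which 0 to 10 were among the 12. Other causes were not tested.

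Of 109 named called probe sets, 31 were called in each of 14 settings, 50 were not in at least 1 left-out array, 38 were not with only the 6 A/J arrays, and none changed sign. Beside genes for which this is said above, the 38 include Acsl1, Acsf2, Angptl4, Hsd17b2, Tns4, Slc2a5, Aldh18a1, Il33 and Retnlg. They also include Trim30d, Dhx58, Cry1, Igfbp4, C4b, Kdelr3, Tbc1d31 and Bfsp1.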

Other observations

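Some called probe sets fell outside the gene lists. A probe set shared by Rnase4 and Ang, secreted ribonucleases, rose by 0.71 in A/J CBDL, and a set shared by Ankhd1 and Eif4ebp3, a repressor of translation, rose by 1.32. A pair of sets shared by Mug1 and related genes, protease inhibitors of mouse plasma, rose by 3.24 and 3.36. A set shared by Amy2a5, an acinar amylase, Amy2a2 and Amy2b rose by 0.65 (adjusted p = 0.041). Its signal was at most 3.29 on the A/J arrays. Of 58 called probe sets with no name in the platform table, 56 were higher and 2 lower in A/J CBDL, and 28 of them took a name from the paper's table. Among the sets named this way, but not among the 28, C3, the central complement protein, was at 10.37, 10.29 and 10.26 in A/J CBDL and at 6.85, 9.22 and 8.73 in A/J sham, and it was not called (adjusted p = 0.0891). Its groups did not overlap, and A/J sham 1 was the lowest array. These probe sets were chosen after their values were seen.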
